A study of Mus musculus with 12 samples.

Results

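The lysosome is the acidic compartment in which the cell breaks down proteins, lipids and glycans delivered by endocytosis and autophagy. Its acidity is made by the vacuolar proton pump, a rotary machine whose V1 sector in the cytosol splits ATP and whose V0 sector in the membrane carries protons inward, and the acid-adapted enzymes work only once the pump has lowered the pH. In the heart, defects of lysosomal genes are known to cause storage disease of the muscle, as with acid alpha-glucosidase in Pompe disease and Lamp2 in Danon disease. The 32 genes described here were a named list, 15 of them pump subunits or accessory proteins of the pump and 17 of them lysosomal enzymes, membrane proteins, lysosomal glycoproteins or the transcription factor Tfeb. They were found by Entrez gene number among the 27179 genes of the count table, and all 32 were there.

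Bulk RNA sequencing covered hearts of 12 mice, 3 in each of 4 groups. Diesel exhaust TAC hearts came from mice whose mothers breathed diesel exhaust between the embryonic days E0.5 and E17.5 and which were operated at 12 weeks for transverse aortic constriction (TAC). TAC narrows the aorta, here to the width of a 27 gauge needle, and so loads the left ventricle with pressure. Diesel exhaust sham hearts had the same exposure and a sham operation. Filtered air TAC hearts and filtered air sham hearts had filtered air in place of diesel exhaust in the same window. All offspring grew up in filtered air, had echocardiography at 11 weeks and were 15 weeks old when their hearts were collected. No strain, genotype, litter or sex of the animals is given in the sources used here, so hearts of 1 group may share a litter, and p-values measure the spread between these samples only.

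Each library held between 5534685 and 13265816 counts, and mitochondrially encoded RNA took 18.3% to 32.4% of them. Diesel exhaust sham replicate 2 stood apart as the shallowest library with the lowest mitochondrial share, and the other 11 libraries lay at 25.1% or above. All 12 marker genes of ventricular cardiomyocytes were detected in every library labelled heart. Of 5 atrial markers, Bmp10 was at 0 in all 12 libraries, while Nppa, Myl4, Myl7 and Sln passed the filter on low counts. Levels below are CPM, counts scaled to a common library size after scaling with TMM factors (a correction for library composition), and triplets of values stand in the order of replicates 1, 2 and 3. A gene was called changed where its p-value from edgeR's quasi-likelihood test, adjusted over all 13626 genes tested by the Benjamini-Hochberg method, was under 0.05. All 32 lysosome and pump genes passed the filter on low counts, with between 58 counts for Atp6v1g1 and 8731 counts for Psap in a single library.

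Per kilobase of exon, the level differed widely among the 32 genes. Psap, the precursor of the saposins that help enzymes reach sphingolipids, averaged 310 ± 65.1 CPM per kilobase, and the aspartic protease cathepsin D (Ctsd) averaged 307 ± 40.4 CPM per kilobase (SD, n = 12). These neighbours in the order did not differ beyond their spread. Next came Lamp1, the most abundant of the 4 lysosomal membrane and cholesterol export genes, at 120 ± 9.998 CPM per kilobase, and the cysteine protease cathepsin B (Ctsb) at 65.0 ± 7.68 CPM per kilobase. Of the pump, the V1 stalk subunit E1 (Atp6v1e1) stood highest at 50.9 ± 5.64 CPM per kilobase, and the proteolipid Atp6v0b followed at 42.0 ± 9.69 CPM per kilobase. The lowest of the 32 were the catalytic V1 subunit A (Atp6v1a) at 5.93 ± 1.53 CPM per kilobase and Tfeb, the factor that drives many lysosomal genes, at 4.30 ± 1.51 CPM per kilobase. Atp6v1a did not differ beyond the spread from its neighbour Atp6ap2, at 6.16 ± 1.76 CPM per kilobase. Levels of pump subunits per kilobase do not give their ratio in the assembled pump, since the transcripts of a gene may differ in length.

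Hearts of 1 group lay close to each other for most of the 32 genes. The median coefficient of variation within a group was 14.6% over 128 values, against 21.2% over all genes tested, which were not matched for level. It was 15.8% for the 15 pump genes and 13.02% for the 17 lysosomal genes. The steadiest was Lamp1 in filtered air sham hearts, at 262, 269 and 267 CPM. The widest was Ctsh, an aminopeptidase, in diesel exhaust sham hearts, at 9.57, 26.2 and 13.6 CPM. Tfeb had 35.3 CPM in diesel exhaust sham replicate 2 and a median of 15.3 CPM over the other 11 libraries. That library was the highest of its group for 19 of the 32 genes and the highest of all 12 for 6 of them.

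Several pump subunits exist in tissue-specific isoforms, and the heart used 1 of them almost exclusively in 4 of the 7 families compared. Subunits B2 (Atp6v1b2), C1 (Atp6v1c1), E1 (Atp6v1e1) and d1 (Atp6v0d1) each held at least 99.8% of their family's CPM per kilobase, averaged over the 12 libraries. The alternative B1 (Atp6v1b1), known from kidney intercalated cells, had 1 count in all 12 libraries together, and the testis isoform E2 (Atp6v1e2) and the kidney isoform G3 (Atp6v1g3) had none. Subunit a, which sets where the pump is placed, was mixed. Averaged over the 12 libraries, Atp6v0a1 held 65.5% of it, Atp6v0a2 22.7%, Tcirg1, the isoform of osteoclasts, 9.95% and Atp6v0a4, another kidney isoform, 1.90%. The mean Atp6v0a4 share differed by group. The gene had only 219 counts in all 12 libraries together, and its share ran from 0% to 7.28% over single libraries. The share averaged 3.86% in diesel exhaust TAC and 3.10% in filtered air TAC hearts, against 0.111% in diesel exhaust sham and 0.532% in filtered air sham hearts. After filtered air the Atp6v0a4 levels of TAC and sham hearts overlapped. The Atp6v0a1 share averaged 61.9% and 63.8% in these TAC groups, against 68.1% and 68.0% in the sham groups. Subunit e was split into 71.4% for Atp6v0e and 28.6% for Atp6v0e2, and subunit G into 89.0% for Atp6v1g1 and 11.0% for Atp6v1g2. All these shares depend on the annotated exon length, 3712 bases for Atp6v0e and 1789 for Atp6v0e2. Before division by length, Atp6v0e had 2606 and Atp6v0e2 476 counts over the 12 libraries.

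**Figure D1:**
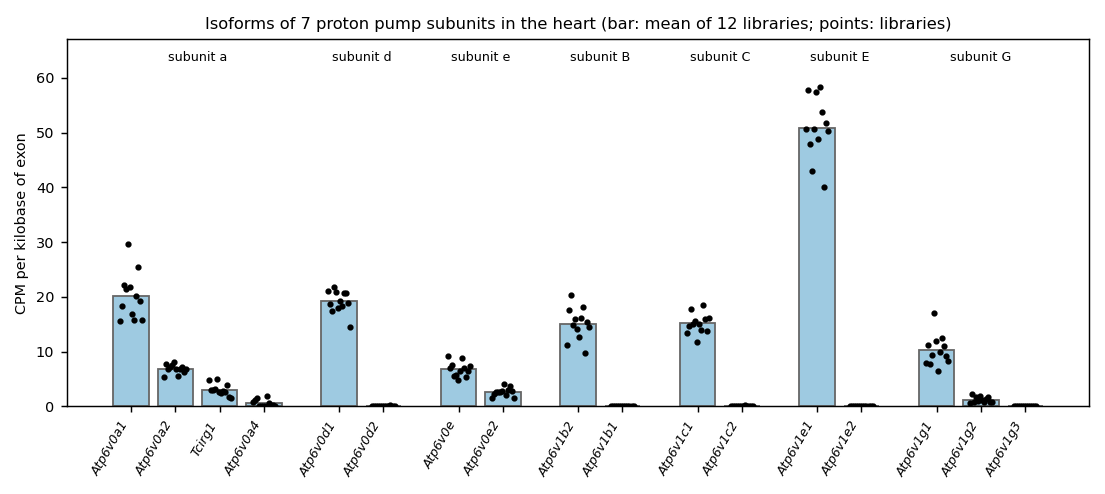
Level of the isoforms of 7 proton pump subunits, in CPM per kilobase of exon (vertical axis, linear), with bars for the mean of 12 libraries and points for single libraries. Subunits d, B, C and E each rest on 1 isoform, and subunit a is spread over Atp6v0a1, Atp6v0a2, Tcirg1 and a low level of Atp6v0a4.

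Tfeb and its relatives are known to bind an E-box with the core CACGTG in the promoters of lysosomal and pump genes. RefSeq promoter windows of GRCm38.p6, 250 bases before to 50 after a gene's start, were at hand for 24 of the 32 genes, and both strands were read, which for this palindrome are the same. The core CACGTG stood in 9 of the 24 (37.5%), against 11.7% of the 10240 tested genes with a window and 8.09% of 27025 genes with one. These were the pump genes Atp6v1a, Atp6v0b, Atp6v0d1 and Atp6v0e and the lysosomal genes Lamp1, Ctsa, Ctsd, Ctsl and Gaa. The longer forms TCACGTG and TCACGTGA, which contain the core, stood in 8 (33.3%) and 5 (20.8%) of the 24 windows, against 6.97% and 2.18% of the tested genes. A form of 10 bases, which contains TCACGTGA, was also searched and stood in 0 of the 24 windows, against 0.771% of the tested genes. That form is so rare that 24 windows cannot show whether its share differs. A match describes the letters of the window and is not a measured binding site.

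The stretches from 70 bases before to 30 after the start are shown for 5 genes with the core there, since they show how near to the start it lies, and for Ctsz and Psap, which changed after TAC and whose windows lack it. Each runs 5′ to 3′ on the gene's strand, and capitals mark CACGTG.
Lamp1: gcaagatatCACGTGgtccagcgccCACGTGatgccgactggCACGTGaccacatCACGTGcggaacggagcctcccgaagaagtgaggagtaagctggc
Atp6v0d1: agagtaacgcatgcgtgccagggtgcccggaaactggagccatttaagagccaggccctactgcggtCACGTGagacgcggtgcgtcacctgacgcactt
Atp6v0e: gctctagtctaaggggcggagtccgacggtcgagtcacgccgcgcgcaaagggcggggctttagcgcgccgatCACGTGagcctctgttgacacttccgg
Atp6v0b: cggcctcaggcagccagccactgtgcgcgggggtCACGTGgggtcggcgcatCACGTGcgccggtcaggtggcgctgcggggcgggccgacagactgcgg
Ctsa: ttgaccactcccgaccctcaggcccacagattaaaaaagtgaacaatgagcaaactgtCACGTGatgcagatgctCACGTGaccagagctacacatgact
Ctsz: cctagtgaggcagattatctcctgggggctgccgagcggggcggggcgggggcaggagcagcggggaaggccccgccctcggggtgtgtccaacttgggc
Psap: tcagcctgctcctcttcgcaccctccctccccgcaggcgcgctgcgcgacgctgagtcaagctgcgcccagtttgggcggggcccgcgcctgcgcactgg
In GRCm38.p6 the Lamp1 stretch is chr8:13159091-13159190 on the plus strand and the Atp6v0d1 stretch is chr8:105566035-105566134 on the minus strand. The Atp6v0e stretch is chr17:26676326-26676425 on the plus strand, and the Atp6v0b stretch is chr4:117887300-117887399 on the minus strand. The Ctsa stretch is chr2:164833703-164833802 on the plus strand, around the other of its listed starts, the Ctsz stretch is chr2:174439010-174439109 on the minus strand and the Psap stretch is chr10:60277558-60277657 on the plus strand. Lamp1 held 4 copies, whose first bases lay 61, 45, 28 and 15 bases before the start, and the single copies of Atp6v0d1 and Atp6v0e lay across or just past it.

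The surgery comparisons ask what pressure load did to these genes, in each exposure and averaged over both. Over the average, 4 of the 32 genes changed (12.5%), against 8.01% of all genes tested, of which 4.1% rose and 3.91% fell. The carboxypeptidase cathepsin Z (Ctsz), the acid ceramidase Asah1, which cleaves ceramide, and the V1 subunit H (Atp6v1h), which couples ATP splitting to the membrane sector, rose after TAC, and Psap fell. The median log2 fold change of the 32 genes was 0.115, with 23 genes above 0, against a median of 0.004 over all genes tested. It was also 0.115 for the 15 pump genes, of which 1 changed, and for the 17 lysosomal genes, of which 3 changed. At an unadjusted p under 0.05 there were 11 of the 32, 9 higher and 2 lower, against 21.6% of all genes. The 95% interval lay within 1 log2 unit of 0 for 31 of the 32 genes, against 70% of all genes, and within 0.5 for 15 of them, against 25.3%. The median SE was 0.144 for the 32 genes and 0.208 over all genes. Here and in the interval counts below, all genes were not matched for level or SE.

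The cathepsin gene Ctsz (gene 64138, chr2:174427494-174439039 in GRCm38.p6) had the largest change. It had 28.0, 28.1 and 36.8 CPM in diesel exhaust TAC hearts and 14.9, 23.1 and 12.7 CPM in diesel exhaust sham hearts. It had 27.7, 27.4 and 21.7 CPM in filtered air TAC hearts and 15.7, 13.9 and 13.1 CPM in filtered air sham hearts. Within each exposure every TAC heart lay above every sham heart, and across exposures diesel exhaust sham replicate 2 lay above the lowest filtered air TAC heart. Averaged over exposure, Ctsz rose by 0.86 ± 0.16 on the log2 scale (SE; 95% interval 0.52 to 1.20), 1.82-fold, with an edgeR adjusted p of 0.00165. It passed in each of the 12 fits that left out 1 library, with log2 values between 0.78 and 1.00.

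Psap (gene 19156, chr10:60277628-60302600) had 608, 759 and 736 CPM in diesel exhaust TAC hearts and 1023, 1236 and 978 CPM in diesel exhaust sham hearts. It had 766, 613 and 828 CPM in filtered air TAC hearts and 924, 923 and 815 CPM in filtered air sham hearts. After diesel exhaust the groups did not overlap, and after filtered air the highest TAC heart lay just above the lowest sham heart. Averaged over exposure, Psap fell by 0.45 ± 0.13 on the log2 scale (95% interval -0.71 to -0.19), to 0.734 of the sham level, with an edgeR adjusted p of 0.0291. It missed the threshold in 6 of 12 fits without 1 library, at adjusted p between 0.0542 and 0.0746 in edgeR. These were the fits without filtered air sham replicate 1 or 2, filtered air TAC replicate 2, diesel exhaust sham replicate 2, or diesel exhaust TAC replicate 1 or 3. With total counts in place of TMM scaling its adjusted p in edgeR was 0.124.

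Asah1 (gene 11886, chr8:41340646-41397644) had 35.8, 32.2 and 30.8 CPM in diesel exhaust TAC hearts and 16.0, 22.6 and 22.2 CPM in diesel exhaust sham hearts. It had 26.2, 39.1 and 26.5 CPM in filtered air TAC hearts and 27.1, 23.9 and 23.7 CPM in filtered air sham hearts. The groups were apart after diesel exhaust and overlapped after filtered air, where 1 TAC heart stood well above the other five. Averaged over exposure, Asah1 rose by 0.50 ± 0.15 on the log2 scale, 1.42-fold, with an edgeR adjusted p of 0.0367. It missed in 7 of 12 fits without 1 library, at edgeR adjusted p between 0.0587 and 0.141, the highest without filtered air TAC replicate 2. The other misses were without filtered air sham replicate 2 or 3, diesel exhaust sham replicate 1 or any of the diesel exhaust TAC hearts.

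Atp6v1h (gene 108664, chr1:5082978-5163213) had 28.5, 22.4 and 21.8 CPM in diesel exhaust TAC hearts and 15.2, 20.6 and 16.0 CPM in diesel exhaust sham hearts. It had 23.5, 32.2 and 26.6 CPM in filtered air TAC hearts and 17.0, 23.1 and 14.0 CPM in filtered air sham hearts. Within each exposure all TAC hearts lay above all sham hearts, by a narrow margin. Averaged over exposure, Atp6v1h rose by 0.55 ± 0.16 on the log2 scale, 1.47-fold, with an edgeR adjusted p of 0.0357. It passed in only 3 of 12 fits without 1 library, those without filtered air sham replicate 2, filtered air TAC replicate 1 or diesel exhaust sham replicate 2. In the other 9 fits its edgeR adjusted p lay between 0.0509 and 0.116, the highest without filtered air TAC replicate 2.

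**Figure D2:**
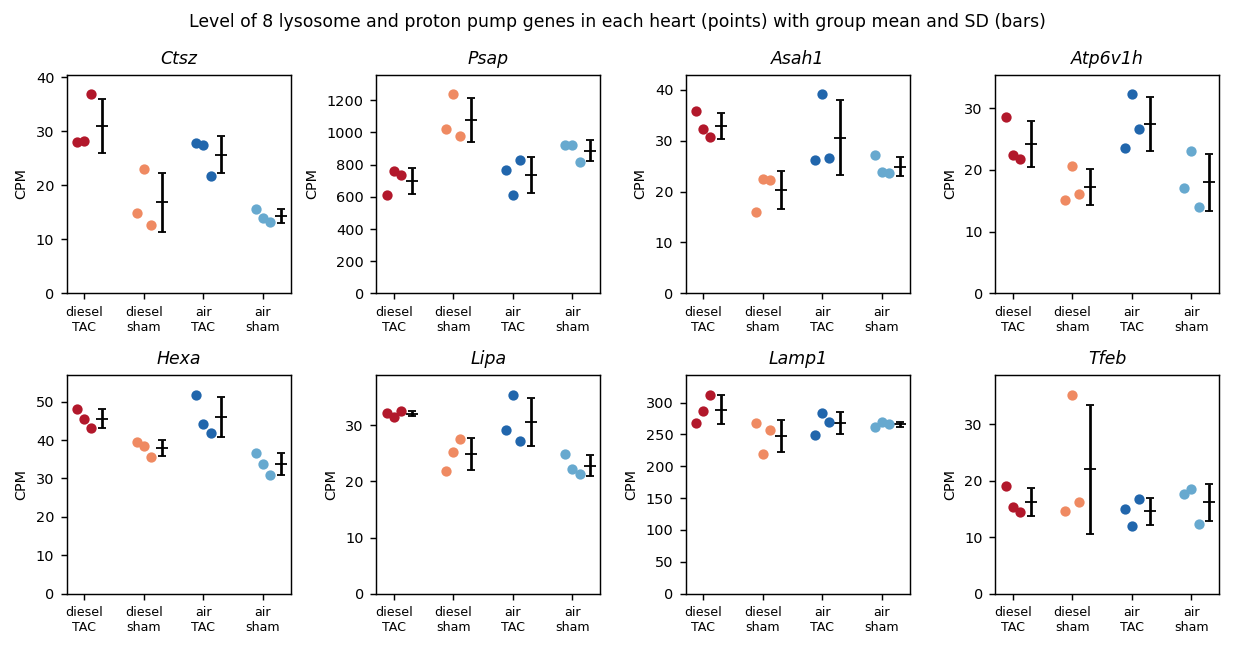
Level of 8 of the genes in each heart (points, CPM on a linear axis from 0) with group mean and SD (bars, n = 3), for diesel exhaust TAC, diesel exhaust sham, filtered air TAC and filtered air sham hearts. Ctsz and Atp6v1h lie higher in TAC than in sham hearts of the same exposure. Psap lies lower after diesel exhaust and overlaps after filtered air, and Lamp1 lies between 219 and 312 CPM in all 12 hearts.

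The count of 4 depended on single libraries. It was 1 without filtered air TAC replicate 2, diesel exhaust TAC replicate 1 or diesel exhaust TAC replicate 3. It was 2 without filtered air sham replicate 2 or 3, diesel exhaust sham replicate 1 or diesel exhaust TAC replicate 2. It was 7 with total counts, which moves the median of all genes by 0.11 on the log2 scale.

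The rest of the pump did not pass the threshold. Of the V1 sector, the catalytic subunit Atp6v1a had 29.5, 31.4 and 30.03 CPM in diesel exhaust TAC hearts, against 22.1, 18.6 and 23.5 CPM in diesel exhaust sham hearts. It had 16.3, 37.1 and 30.3 CPM in filtered air TAC hearts, against 16.7, 23.3 and 23.2 CPM in filtered air sham hearts. The groups were apart after diesel exhaust, and 1 filtered air TAC heart held the lowest value of all 12. Averaged over exposure its log2 fold change was 0.46 ± 0.17 with an edgeR adjusted p of 0.116. The other 6 V1 genes lay between -0.25 ± 0.21 for the stalk subunit Atp6v1g1 and 0.19 ± 0.16 for Atp6v1b2, the nucleotide-binding partner of subunit A. Of the V0 genes, 3 were close to 0, namely Atp6v0b at 0.00 ± 0.16, Atp6v0d1, the link between the sectors, at 0.01 ± 0.13 and Atp6v0c, the main proteolipid of the proton ring, at -0.07 ± 0.17.

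Among the remaining V0 genes, Atp6v0e had 34.3, 26.1 and 27.8 CPM in diesel exhaust TAC hearts, against 20.7, 21.2 and 17.9 CPM in diesel exhaust sham hearts. It had 24.3, 32.7 and 26.4 CPM in filtered air TAC hearts, against 19.8, 24.2 and 27.3 CPM in filtered air sham hearts. Its averaged log2 fold change was 0.40 ± 0.14 with an edgeR adjusted p of 0.0956, and Atp6v0a1 had -0.29 ± 0.14 with an edgeR adjusted p of 0.233. The accessory proteins Atp6ap1, which is needed for pump assembly, and Atp6ap2, the prorenin receptor, had averaged log2 fold changes of 0.14 ± 0.13 and 0.34 ± 0.21. Summed over the 15 pump genes, the level was 568, 590 and 604 CPM in diesel exhaust TAC hearts and 550, 614 and 530 CPM in diesel exhaust sham hearts. It was 525, 588 and 611 CPM in filtered air TAC hearts and 537, 554 and 535 CPM in filtered air sham hearts. These sums overlapped between TAC and sham hearts in both exposures.

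The lysosomal membrane and export genes also missed the threshold. Lamp1, the major membrane glycoprotein, had 267, 287 and 312 CPM in diesel exhaust TAC hearts and 267, 219 and 257 CPM in diesel exhaust sham hearts. It had 250, 284 and 269 CPM in filtered air TAC hearts and 262, 269 and 267 CPM in filtered air sham hearts, and the groups overlapped in both exposures. Its averaged log2 fold change was 0.12 ± 0.11, with a 95% interval of -0.11 to 0.34. Lamp2, the receptor of chaperone-mediated autophagy, had 0.24 ± 0.11 with an edgeR adjusted p of 0.226. The cholesterol exporters went apart, Npc2, which carries cholesterol inside the lysosome, at 0.24 ± 0.16 and Npc1, which passes it through the membrane, at -0.45 ± 0.21, and neither passed.

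Among the other cathepsins, only the cysteine protease Ctsl had an unadjusted p under 0.05. It had 167, 121 and 107 CPM in diesel exhaust TAC hearts and 115, 88.9 and 86.1 CPM in diesel exhaust sham hearts. It had 136, 153 and 117 CPM in filtered air TAC hearts and 145, 100 and 75.0 CPM in filtered air sham hearts, so the groups overlapped in both exposures. Its averaged log2 fold change was 0.39 ± 0.16 with an edgeR adjusted p of 0.137. Ctsd and Ctsb, the cathepsins with the highest levels per kilobase, had 0.09 ± 0.13 and 0.08 ± 0.12. Ctsa, which shields other lysosomal enzymes as well as cutting peptides, had 0.17 ± 0.11, and Ctsh had -0.01 ± 0.21.

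All 5 lipid and glycan hydrolases, with Psap counted among them as their activator, had an unadjusted p under 0.05, 3 higher and 2 lower. This held for 21.6% of all genes tested, and for 10 of the 39 other lysosomal hydrolases described below. The hexosaminidase subunit Hexa had 48.1, 45.4 and 43.2 CPM in diesel exhaust TAC hearts, against 39.6, 38.4 and 35.5 CPM in diesel exhaust sham hearts. It had 51.8, 44.1 and 41.8 CPM in filtered air TAC hearts, against 36.6, 33.8 and 30.8 CPM in filtered air sham hearts. Hexa was the 1 gene of the 32 (3.12%) in which all 6 TAC hearts lay apart from all 6 sham hearts, as they did for 4.32% of all genes tested, and yet its averaged log2 fold change of 0.36 ± 0.12 had an edgeR adjusted p of 0.0687. Lipa, which frees cholesterol and fatty acids, had 32.1, 31.6 and 32.6 CPM in diesel exhaust TAC hearts and 21.8, 25.2 and 27.6 CPM in diesel exhaust sham hearts. It had 29.2, 35.5 and 27.2 CPM in filtered air TAC hearts and 24.9, 22.2 and 21.4 CPM in filtered air sham hearts. Lipa did not overlap within either exposure, and its averaged log2 fold change of 0.40 ± 0.13 had an edgeR adjusted p of 0.0657.

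The glycogen-digesting alpha-glucosidase Gaa lay lower. It had 92.9, 131 and 118 CPM in diesel exhaust TAC hearts, against 139, 208 and 156 CPM in diesel exhaust sham hearts. It had 138, 74.2 and 114 CPM in filtered air TAC hearts, against 136, 152 and 109 CPM in filtered air sham hearts. The groups were apart after diesel exhaust and overlapped after filtered air, and the averaged log2 fold change of -0.42 ± 0.15 had an edgeR adjusted p of 0.0959. Tfeb had 19.0, 15.3 and 14.4 CPM in diesel exhaust TAC hearts and 14.7, 35.3 and 16.3 CPM in diesel exhaust sham hearts. It had 15.0, 12.0 and 16.7 CPM in filtered air TAC hearts and 17.7, 18.5 and 12.3 CPM in filtered air sham hearts. The Tfeb values overlapped in both exposures, with an averaged log2 fold change of -0.29 ± 0.20, and Grn, which encodes progranulin, had 0.11 ± 0.13.

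**Figure D3:**
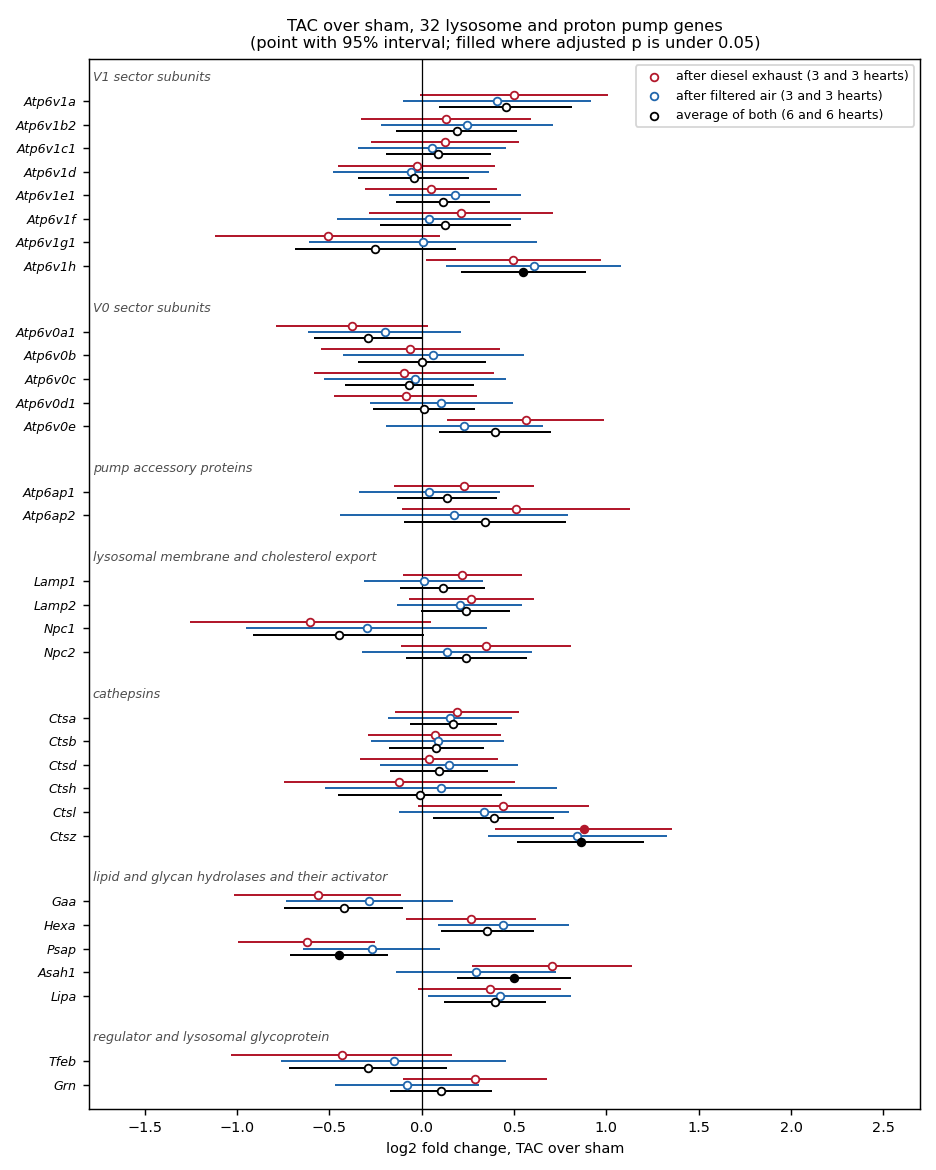
Log2 fold change of TAC over sham (horizontal axis) with its 95% interval for the 32 genes, grouped by role, after diesel exhaust, after filtered air and averaged over both. Filled points mark an adjusted p under 0.05, which Ctsz has after diesel exhaust and on average, and Psap, Asah1 and Atp6v1h have on average.

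Taken by exposure, fewer calls were made. After diesel exhaust 1 of the 32 genes passed, against 3.24% of all genes tested, and this was Ctsz at a log2 fold change of 0.88 ± 0.23, 1.84-fold, with an edgeR adjusted p of 0.0355. The count was 2 without filtered air TAC replicate 1 and 3 without filtered air TAC replicate 2. The Ctsz call was lost without diesel exhaust sham replicate 1 or 3 or any of the diesel exhaust TAC hearts, at edgeR adjusted p between 0.059 and 0.193. At an unadjusted p under 0.05 there were 6, against 15.9% of all genes. Next to the threshold were Psap, at -0.62 ± 0.18 with an edgeR adjusted p of 0.0559, and Asah1, at 0.71 ± 0.21 with an edgeR adjusted p of 0.0652. After filtered air 0 of the 32 passed in edgeR, against 0.829% of all genes tested, with 1 by DESeq2, 0 by limma voom and 4 at an unadjusted p under 0.05, against 11.1% of all genes. These 4 were Ctsz at 0.84 ± 0.23, Atp6v1h at 0.61 ± 0.23, Hexa at 0.44 ± 0.17 and Lipa at 0.42 ± 0.19, all positive, and the edgeR adjusted p of Ctsz was 0.0995. Without diesel exhaust sham replicate 2, Ctsz passed after filtered air with an edgeR adjusted p of 0.0468.

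The TAC and sham hearts did not overlap for 9 of the 32 genes after diesel exhaust (28.1%), against 22.3% of all genes tested. Of them, 7 were higher after TAC, against 11.1% of all genes, namely Atp6v1a, Atp6v1h, Atp6v0e, Ctsz, Hexa, Asah1 and Lipa. The 2 lower ones, against 11.2% of all genes, were Gaa and Psap. After filtered air this held for 6 genes (18.8%), against 15.8% of all genes. All 6 were higher after TAC, against 8.2% of all genes, namely Atp6v1h, Lamp2, Ctsa, Ctsz, Hexa and Lipa. The fold changes of the exposures rest on separate hearts. They had the same sign for 27 of the 32 genes (84.4%), against 67.4% of all genes tested, which were not matched for level. Of the 27, 20 were positive in both and 7 negative in both. The median log2 fold change was 0.163 after diesel exhaust and 0.106 after filtered air, against 0.001 and 0.005 over all genes.

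Genes with CACGTG in their promoter window were also set beside those without it after TAC. The 9 with the core had a median averaged log2 fold change of 0.115, with 8 above 0 and none past the threshold. The 15 whose window lacks it had a median of 0.128, with 10 above 0 and 2 past the threshold, Ctsz and Psap. The other 8, Asah1 and Atp6v1h among them, were named only, with no promoter read.

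Marker genes of other cell types moved with the surgery. In bulk tissue, fewer cells of a type and less RNA per cell cannot be told apart. The 20 macrophage markers, none at 0 in any library, summed to 634, 591 and 620 CPM in diesel exhaust TAC hearts and to 347, 600 and 353 CPM in diesel exhaust sham hearts. They summed to 472, 728 and 493 CPM in filtered air TAC hearts and to 309, 424 and 419 CPM in filtered air sham hearts. Of the 20, 7 rose over the average, against 4.1% of all genes tested. Diesel exhaust sham replicate 2, the sham heart with the highest Ctsz, also had the highest macrophage sum of the 6 sham hearts. Macrophages are known to be rich in lysosomes, and the part of these cells in the change of Ctsz, Asah1 and Atp6v1h was not tested.

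The 12 fibroblast markers summed to between 3546 and 4134 CPM in diesel exhaust TAC hearts, against 1633 to 2222 CPM in diesel exhaust sham hearts. They summed to between 2470 and 3998 CPM in filtered air TAC hearts, against 1736 to 1871 CPM in filtered air sham hearts. Of the 12, 8 rose over the average, against 4.1% of all genes tested. The 12 ventricular cardiomyocyte markers summed to between 91807 and 99910 CPM in diesel exhaust TAC hearts, against 109744 to 147074 CPM in diesel exhaust sham hearts. In filtered air TAC hearts that sum was 81327 to 132719 CPM, against 110834 to 148166 CPM in filtered air sham hearts. Over the average 4 of the 12 fell, Tnni3, Myh6, Ryr2 and Tnnt2, against 3.91% of all genes tested. Filtered air TAC replicate 2 had the lowest cardiomyocyte sum and the highest macrophage sum of the 12 libraries, and also the highest Asah1, Atp6v1h and Lipa. Its Ctsz lay below that of every diesel exhaust TAC heart, although those hearts had lower macrophage sums. Filtered air sham replicate 1 had the lowest macrophage sum of the 12, at 309 CPM, and the highest Asah1 of the sham hearts, at 27.1 CPM. Diesel exhaust sham replicate 2 had the lowest cardiomyocyte sum of the sham hearts, 109744 CPM, and the highest Psap of all 12 hearts, 1236 CPM. The part of these cells in the fall of Psap was not tested.

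Of 8 smooth muscle and pericyte markers, Pdgfrb rose and Abcc9 and Acta2 fell over the average, against 4.1% and 3.91% of all genes tested. These 8 markers summed to between 583 and 663 CPM in diesel exhaust TAC hearts, against 623 to 800 CPM in diesel exhaust sham hearts. They summed to between 616 and 705 CPM in filtered air TAC hearts, against 717 to 772 CPM in filtered air sham hearts. Of the atrial markers only Nppa, which the loaded ventricle is also known to express, changed. It rose and made up most of their sum, which was 771 to 1714 CPM in diesel exhaust TAC hearts, against 53.2 to 97.8 CPM in diesel exhaust sham hearts. In filtered air TAC hearts that sum was 442 to 982 CPM, against 62.8 to 108.5 CPM in filtered air sham hearts. None of the 10 endothelial, 4 erythrocyte or 2 other leukocyte markers tested changed over the average in edgeR, with 2, 0 and 1 at an unadjusted p under 0.05. Of all genes tested, 8.01% changed and 21.6% had such an unadjusted p. No adipocyte marker passed the filter. The part of these cells in the results was not tested.

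**Figure D4:**
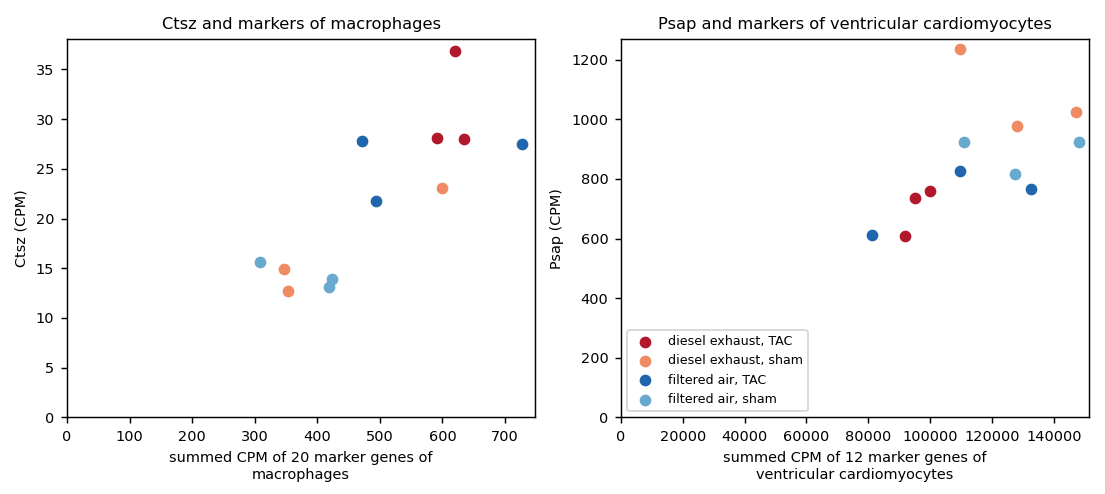
Left, the level of Ctsz (CPM) against the summed CPM of 20 macrophage markers. Right, the level of Psap (CPM) against the summed CPM of 12 ventricular cardiomyocyte markers, with 1 point per heart and axes from 0. The 5 hearts with the lowest Ctsz, 12.7 to 15.7 CPM, are sham hearts with macrophage sums of 309 to 424 CPM, and the 4 hearts with the lowest cardiomyocyte sums are TAC hearts with Psap between 608 and 759 CPM. The heart with the highest macrophage sum, filtered air TAC replicate 2, has less Ctsz than every diesel exhaust TAC heart. The sham heart with the lowest cardiomyocyte sum, diesel exhaust sham replicate 2, has the highest Psap, 1236 CPM.

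The further genes of the pathway were 124 tested genes in 6 lists, of which 5 changed over the average (3 higher, 2 lower), against 8.01% of all genes tested. At an unadjusted p under 0.05 there were 23 of the 124, against 21.6% of all genes. Sort1, a receptor that sorts enzymes and Psap toward the lysosome, had 20.3, 22.6 and 27.0 CPM in diesel exhaust TAC hearts and 32.3, 34.6 and 35.6 CPM in diesel exhaust sham hearts. It had 33.8, 21.9 and 23.2 CPM in filtered air TAC hearts and 42.1, 48.0 and 42.3 CPM in filtered air sham hearts. Within each exposure every TAC heart lay below every sham heart. Sort1 fell by 0.65 ± 0.14 on the log2 scale with an edgeR adjusted p of 0.00459, and it was the 1 of 12 mannose 6-phosphate and sorting genes that changed.

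Of 39 other lysosomal hydrolases, 2 rose and none fell, against 4.1% and 3.91% of all genes tested, with a median log2 fold change of 0.120. An unadjusted p under 0.05 was reached by 10 of the 39, 8 higher and 2 lower, against 21.6% of all genes. Cathepsin K (Ctsk), a collagen-cutting protease, had 7.25, 9.26 and 11.5 CPM in diesel exhaust TAC hearts and 4.34, 1.34 and 7.36 CPM in diesel exhaust sham hearts. It had 11.0, 10.9 and 5.74 CPM in filtered air TAC hearts and 3.70, 2.50 and 3.57 CPM in filtered air sham hearts, and rose 2.44-fold with an edgeR adjusted p of 0.0104. The groups overlapped after diesel exhaust and were apart after filtered air.

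Of 12 other pump genes tested, only the isoform Atp6v0a4 changed over the average, at low level, against 8.01% of all genes tested. It had 3.05, 3.90 and 5.67 CPM in diesel exhaust TAC hearts, against 0, 0.501 and 0 CPM in diesel exhaust sham hearts. It had 0.119, 6.77 and 2.03 CPM in filtered air TAC hearts, against 0, 1.03 and 0.487 CPM in filtered air sham hearts. Filtered air sham replicate 2, at 1.03 CPM, lay above its floor of 0.428 CPM. The other sham hearts lay at or near the 3 counts taken as the floor of a library (0.226 to 0.542 CPM), so no fold is given. Down there too was 1 filtered air TAC heart. Its edgeR adjusted p was 0.0203 over the average, and between 0.0553 and 0.0643 without filtered air sham replicate 3, filtered air TAC replicate 2 or diesel exhaust sham replicate 1 or 3.

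Among 17 relatives of Tfeb and genes of the mTORC1 platform on the lysosome, 1 changed over the average, against 8.01% of all genes tested. This was Mitf, a transcription factor of Tfeb's family. It had 50.4, 48.2 and 48.4 CPM in diesel exhaust TAC hearts and 65.9, 57.0 and 63.3 CPM in diesel exhaust sham hearts. It had 64.4, 49.3 and 50.1 CPM in filtered air TAC hearts and 85.3, 62.5 and 79.5 CPM in filtered air sham hearts. Mitf fell by 0.41 ± 0.12 on the log2 scale with an edgeR adjusted p of 0.04, which rose to between 0.0605 and 0.109 in 9 of 12 fits without 1 library. It passed only without filtered air sham replicate 2, filtered air TAC replicate 1 or diesel exhaust sham replicate 2. Of 22 other lysosomal membrane genes none changed in edgeR, with 3 at an unadjusted p under 0.05, against 21.6% of all genes.

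None of 22 autophagy genes changed over the average in edgeR, with 2 at an unadjusted p under 0.05, against 21.6% of all genes. After diesel exhaust Atg4d, a protease that trims the LC3 proteins of the autophagosome, was the only one of the 124 genes to change, against 3.24% of all genes tested. It had 23.1, 29.0 and 26.7 CPM in diesel exhaust TAC hearts, against 37.5, 46.1 and 47.6 CPM in diesel exhaust sham hearts, and fell by 0.74 ± 0.20 on the log2 scale with an edgeR adjusted p of 0.0421. After filtered air it had 30.6, 29.95 and 35.0 CPM in TAC hearts, against 35.7, 34.5 and 22.4 CPM in sham hearts. The groups overlapped there. The interaction for Atg4d was -0.78 ± 0.28 on the log2 scale (95% interval -1.36 to -0.20). In edgeR its unadjusted p was 0.0108 and its adjusted p was 1. Among sham hearts Atg4d lay higher after diesel exhaust than after filtered air, by 0.50 ± 0.20, with an edgeR adjusted p of 0.996. The call after diesel exhaust held in 4 of 12 fits without 1 library, those without filtered air sham replicate 1 or 3 or filtered air TAC replicate 1 or 2.

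The exposure comparisons ask whether diesel exhaust in utero left a mark on the same genes in the adult heart, at rest and under load. In sham hearts 0 of the 32 genes passed in edgeR, by DESeq2 or by limma voom, and none had an unadjusted p under 0.05 in edgeR. Across all genes tested 0% passed in edgeR, and 3.69% had an unadjusted p under 0.05. The smallest edgeR adjusted p among the 32 genes was 0.996, their median log2 fold change was 0.009, and 16 were above 0. The 95% interval lay within 1 log2 unit of 0 for 30 of the 32, against 59.9% of all genes, and within 0.5 for 5 of them, against 11.9%.

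With all 12 libraries, the largest difference in sham hearts was that of Tfeb, 0.44 ± 0.29 on the log2 scale with a 95% interval of -0.16 to 1.04. Replicate 2 alone of the diesel exhaust sham hearts lay above the filtered air range, and without it the value was -0.07. The V1 subunit Atp6v1g1 had 10.7, 19.4 and 13.6 CPM in diesel exhaust sham hearts, against 12.6, 10.4 and 9.41 CPM in filtered air sham hearts, a log2 fold change of 0.42 ± 0.29, and of 0.16 without diesel exhaust sham replicate 2. Groups did not overlap for 2 of the 32 genes (6.25%), against 7.6% of all genes tested. Psap lay higher after diesel exhaust, with values from 978 to 1236 CPM, against 815 to 924 CPM after filtered air. Asah1 lay lower, from 16.0 to 22.6 CPM after diesel exhaust, against 23.7 to 27.1 CPM after filtered air. Their log2 fold changes of 0.28 ± 0.18 and -0.30 ± 0.21 did not pass the test.

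In TAC hearts 0 of the 32 genes passed in edgeR, by DESeq2 or by limma voom, and again none had an unadjusted p under 0.05 in edgeR. Across all genes tested 0% passed in edgeR, and 1.87% had an unadjusted p under 0.05. The median log2 fold change was 0.063 with 18 genes above 0, and the 95% interval lay within 1 log2 unit of 0 for all 32 genes, against 64.4% of all genes. Groups did not overlap for 2 genes (6.25%), against 7.71% of all genes. Ctsz had 28.0 to 36.8 CPM after diesel exhaust, against 21.7 to 27.7 CPM after filtered air, a log2 fold change of 0.27 ± 0.22 with a 95% interval of -0.19 to 0.73. Grn had 44.1, 46.6 and 45.3 CPM after diesel exhaust, against 41.4, 40.7 and 33.5 CPM after filtered air, a log2 fold change of 0.24 ± 0.18.

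**Figure D5:**
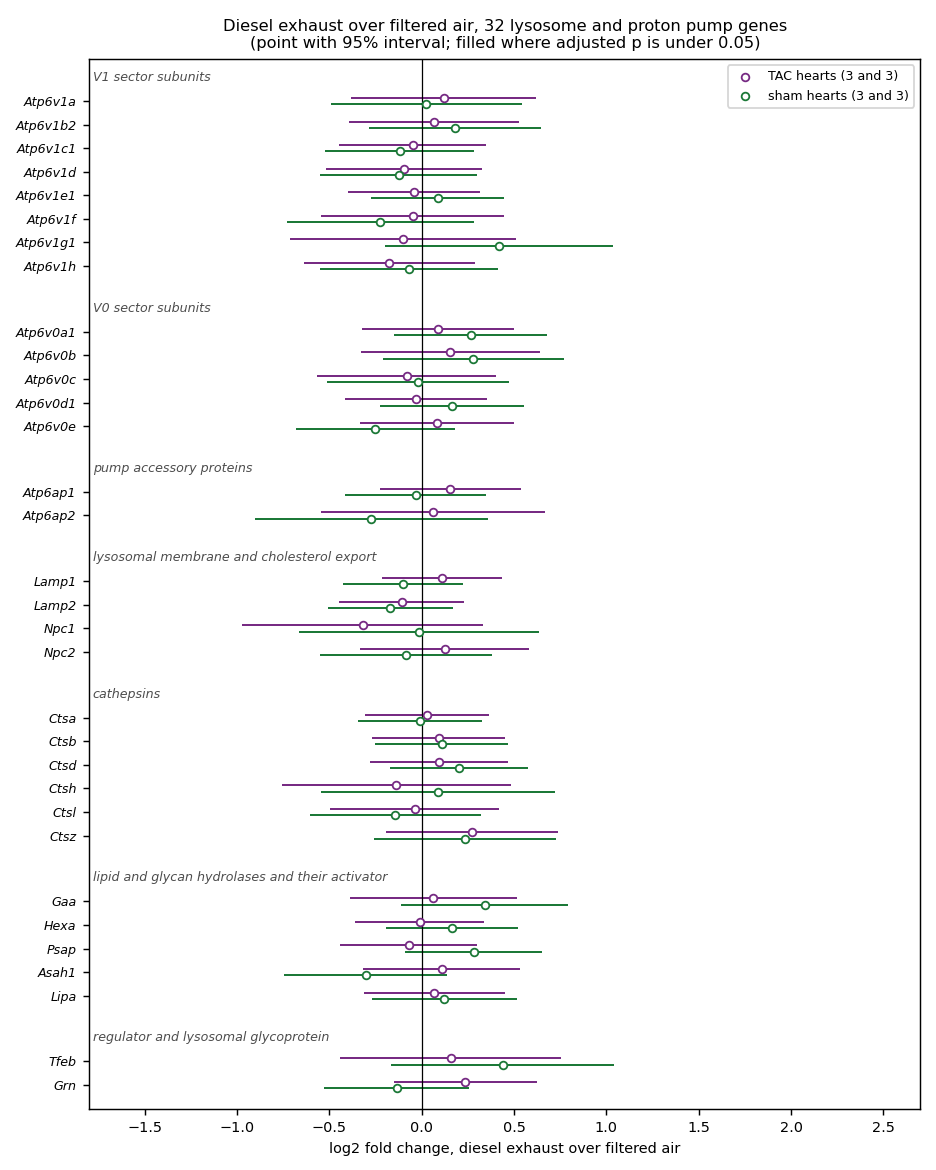
Log2 fold change of diesel exhaust over filtered air (horizontal axis) with its 95% interval for the 32 genes, in TAC hearts and in sham hearts. No point is filled, since no gene had an adjusted p under 0.05, and each of the intervals spans 0.

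Whether the response to TAC differed by exposure was tested as the interaction. Of the 32 genes 0 passed in edgeR, by DESeq2 or by limma voom, and none had an unadjusted p under 0.05 in edgeR, against 0% and 2.4% of all genes tested. The largest values were -0.52 ± 0.41 on the log2 scale for Atp6v1g1, 0.41 ± 0.29 for Asah1, 0.37 ± 0.26 for Grn and -0.35 ± 0.25 for Psap. For Asah1 the 95% interval ran from -0.19 to 1.02, so neither an equal response nor a response of about 1 log2 unit more after diesel exhaust lay outside it. For Ctsz, the gene with the largest response to TAC, the interaction was 0.04 ± 0.32 with a 95% interval of -0.64 to 0.71. The interval lay within 1 log2 unit of 0 for 26 of the 32 genes, against 39.2% of all genes, and within 0.5 for 0 of them, against 0.558%.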

How the data were processed

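Per the submitters' processing notes, reads were handled with cutadapt 1.6, Subread 1.4.2 and featureCounts on mm10. Per the labels' protocols, total RNA was depleted of ribosomal RNA, made into Ion semiconductor libraries and sequenced 4 samples a run, with the run of each sample not stated there. The authors deposited unnormalised whole-number counts for each Entrez gene. The sources used here do not state the strand setting or the treatment of multi-mapping reads, so genes with overlapping neighbours or close relatives can share reads. Symbols came from RefSeq for 25275 of 27179 genes. With R 4.3.3 and edgeR 4.0.16, counts were scaled by TMM, filtered by filterByExpr (minimum count 10) and given 1 mean per group in a robust quasi-likelihood fit of all 12 libraries. Exon lengths came from GENCODE M21. DESeq2 1.42.0, limma voom (limma 3.58.1), other scalings, no filter, 6-library fits and fits without each library were alternatives. The scripts were tested on simulated data. All 32 genes were to be named, and of each further list those past the threshold. A gene of the further lists is not reported here. The members, lists and tests were chosen with earlier results of these data known. Floors and intervals cover counting error or the spread between these hearts only.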

Additional observations from a re-analysis of the deposited data

How the results depend on the processing

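Over all genes, calls after filtered air numbered 258 by DESeq2 and 247 without the filter, against 113 as reported, and after diesel exhaust 676 by DESeq2, against 442. In TAC hearts diesel exhaust against filtered air gave 1 call by DESeq2 and 1 without the filter, as did the interaction, against 0 as reported. Of the 32 genes, 1 passed after filtered air by DESeq2 and 1 without the filter, against 0. After diesel exhaust 2 passed with total counts, 3 by DESeq2, 2 by limma voom, 2 without the filter and 0 with the 6 libraries alone, against 1. Over the average 7 passed with total counts, against 4. Total counts also moved the share of higher calls to 84.1% after filtered air, 73.8% after diesel exhaust and 74.1% over the average, against 73.5%, 54.1% and 51.1% with TMM. Leaving out 1 library gave 39 to 143 calls after filtered air, 188 to 530 after diesel exhaust and 631 to 1213 over the average, and 0 in both exposure comparisons and the interaction. For the 32 genes these ranges were 0 to 1, 0 to 3 and 1 to 6, and 0 elsewhere. Ctsz passed over the average under every alternative run. No call reversed. Of 3584 pairs of a gene's value and an alternative, 29 lost a call, 21 gained one and 206 changed the sign of a value that was not called. No paired analysis was possible because the replicate numbers only name the samples in accession order. The 6-library fit was not made for the average or the interaction. Each of the 32 genes had at least 58 counts in every library, and the share of counting error in their spread was not tested.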
